A study of Mus musculus with 6 samples.

Results

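RNA of 8 genes was followed in mouse myeloid progenitors: the Musashi genes Msi1 and Msi2, the insulin-like growth factor 2 mRNA-binding protein genes Igf2bp1, Igf2bp2 and Igf2bp3, the LIN28 genes Lin28a and Lin28b, and Hmga2. They were taken from 31626 gene rows per library, 7 by the deposited symbol and Lin28a, whose row is deposited as Lin28, by its Ensembl identifier. The genes were chosen by name with results of this same contrast known, so their values are given as a description with no test. The cells were common myeloid progenitors of C57Bl/6 mice with Dot1l flanked by loxP sites on both alleles (Dot1l flox/flox), transformed with the retroviral vector MSCV-MN1-IRES-GFP, which carries the leukaemia oncogene MN1 and the GFP marker. DOT1L methylates lysine 79 of histone H3. All cells carried MN1 and grew in the methylcellulose medium M3234 with FBS, IL3, IL6 and SCF. The 3 control libraries came from cells given a control transduction, and the 3 Dot1l-deleted libraries from cells transduced with Cre, which deletes the floxed gene; all were sorted at day 7. No library had Cre with intact Dot1l, so the effect of Cre and that of the deletion cannot be told apart.

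LIN28 proteins bind precursors of the let-7 microRNAs and keep them from being processed, in part through the uridylating enzyme TUT4 and the exonuclease DIS3L2. Mature let-7 in turn represses Lin28a, Lin28b, Hmga2 and IGF2BP transcripts, so these genes form a circuit that is on in embryonic and fetal cells and mostly off in adult ones. Musashi proteins bind mRNAs and alter their translation or stability, and IGF2BP proteins protect bound mRNAs. MSI2 is known for sustaining blood stem cells and myeloid leukaemia cells, and LIN28B and HMGA2 for the self-renewal of fetal blood stem cells. HMGA2 is not an RNA-binding protein: it binds AT-rich DNA with its AT-hooks and is counted here as a let-7 target.

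The let-7 seed is shown because it links most of the 8 genes. All 9 mature let-7 and miR-98 arms in the RefSeq table (build GRCm38.p6) shared the seed GAGGUAG at bases 2 to 8, in capitals in the first line, and its match in DNA letters is CTACCTC. The other lines are matches in the longest annotated 3′ untranslated region (3′UTR) of each gene, from GENCODE M21 transcripts, with the match in capitals and 15 bases before it.
let-7a-5p: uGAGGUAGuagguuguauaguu
Hmga2, first match: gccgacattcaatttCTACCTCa
Lin28a, first match: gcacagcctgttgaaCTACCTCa
Lin28a, second match: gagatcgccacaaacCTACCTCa
Igf2bp3, only match: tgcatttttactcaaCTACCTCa

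Hmga2 held 4 matches in 3014 bases, Lin28b 4 in 4445, Igf2bp1 4 in 6337, Lin28a 2 in 2775, and Igf2bp2 and Igf2bp3 1 each. Neither Musashi gene held one, in 1895 bases for Msi1 and 5310 for Msi2. At least 1 match stood in 9.02% of the 21022 genes with a 3′UTR. Longer regions more often held one: among genes with a 3′UTR of like length, at least 1 match stood in 16.04% for Hmga2, 14.7% for Lin28a, 13.3% for Igf2bp3 and 28.2% for Msi2, and 4 or more in 0.123% for Hmga2. A match is a stretch of letters, not a measured site, and mature let-7 was not measured in these libraries.

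Among the 8 genes, Msi2 and Hmga2 RNA was lower after Dot1l deletion, Lin28a was higher, Igf2bp3 was well expressed in both groups, which overlapped, and the remaining 4 were low or listed at 0. Levels are deposited FPKM (fragments per kilobase of gene, adjusted for library depth), so levels of different genes can be compared per length. Log2 fold changes come from a fit on log2(FPKM + 1), are Dot1l-deleted minus control, and stand beside the standard error of the fit (SE). A mean of at least 1 FPKM over the 6 libraries, the filter for the fit, was reached by 4 of the 8: Msi2, Hmga2, Lin28a and Igf2bp3. The libraries of the groups did not overlap for 3 of the 8 genes, Msi2, Lin28a and Hmga2. By the same measure 44.9% of the 11924 tested genes did not overlap, so a lack of overlap alone is common in this contrast. Since these libraries are bulk samples, fewer cells that express a gene and less RNA per cell cannot be told apart.

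Msi2 (ENSMUSG00000069769) was the highest of the 8 genes in the controls. The controls were at 71.9, 80.4 and 81.7 FPKM and the Dot1l-deleted libraries at 14.8, 13.2 and 11.5. Every control stood far above every Dot1l-deleted library, and neither group had a stray value. The mean went from 78.0 ± 5.30 to 13.1 ± 1.66 FPKM (SD, n = 3 each), 5.94-fold lower, with a log2 fold change of -2.49 (SE 0.153). Ordered by log2 fold change, Msi2 was at place 66 from the lowest of the 11924 tested genes. In the controls its level lay above that of 86.9%, 88.9% and 89.0% of tested genes, and after deletion above that of 50.3%, 47.5% and 51.8%. The estimated depth put 18580 to 20650 fragments on the gene in the controls and 2650 to 3772 after deletion, so counting error was small in both groups.

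Msi2 made up nearly all Musashi RNA. Its paralogue Msi1, known from neural stem cells, was listed at 0 in all libraries but the first Dot1l-deleted one, at 0.0266 FPKM, or about 3.79 fragments. Msi2 thus held between 99.8% and 100% of the summed Musashi FPKM of each library, with no appreciable Msi1 in either group.

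Hmga2 (ENSMUSG00000056758), the AT-hook chromatin gene, was also lower, by less. The controls held 15.02, 19.7 and 17.3 FPKM and the Dot1l-deleted libraries 8.93, 6.62 and 6.72. The lowest control lay well above the highest Dot1l-deleted library. The mean went from 17.3 ± 2.32 to 7.42 ± 1.30 FPKM (SD, n = 3 each), 2.34-fold lower, with a log2 fold change of -1.13 (SE 0.159). Its level lay above that of 50.03%, 57.2% and 54.3% of tested genes in the controls against 37.0%, 30.7% and 37.4% after deletion.

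Lin28a (ENSMUSG00000050966), the blocker of let-7 maturation, was low in the controls and higher after deletion. It was at 0.685, 0.723 and 0.702 FPKM in controls, against 5.92, 5.18 and 4.02 in Dot1l-deleted libraries. The controls were close to each other, and all 3 Dot1l-deleted libraries lay several-fold above them. The mean went from 0.703 ± 0.0188 to 5.04 ± 0.9602 FPKM (SD, n = 3 each), 7.17-fold higher. On the log2(FPKM + 1) scale, which understates changes of low genes, the log2 fold change was 1.81 (SE 0.175); with a pseudocount of 0.1 it was 2.66. Lin28a had a mean of at least 1 FPKM over the 6 libraries, the level needed for the fit, only through the Dot1l-deleted group. Its row held an estimated 61.3 to 75.5 fragments in the controls and 391.6 to 580.4 after deletion. Even then the level lay above only 25.9% to 27.9% of tested genes, so Lin28a stayed a low-level transcript.

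Lin28b, the paralogue that marks fetal blood stem cells, was at 0.0189, 0.0148 and 0.00802 FPKM in controls, against 0.0141, 0.0247 and 0.0353 in Dot1l-deleted libraries. These values stand for an estimated 1.59 to 7.82 fragments, and the groups overlapped. Of the summed LIN28 FPKM, Lin28a held 97.3% to 99.8% in every library.

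Igf2bp3 (ENSMUSG00000029814) was the main IGF2BP gene of these cells. Values were 15.9, 15.7 and 14.9 FPKM for controls, against 19.2, 17.3 and 12.6 for Dot1l-deleted libraries. The Dot1l-deleted libraries lay on both sides of the controls, the third below them and the others above. The mean was 15.5 ± 0.543 in the controls and 16.4 ± 3.40 after deletion (SD, n = 3 each), and the log2 fold change was 0.06 (SE 0.166), smaller than its error. The protein-coding gene Malsu1 overlaps Igf2bp3, at 30.2, 24.1 and 24.2 FPKM in controls, against 34.3, 29.3 and 18.1 in Dot1l-deleted libraries. The libraries were stranded, but as the labels do not say whether counting used strand, reads of Igf2bp3 and Malsu1 may be shared, which was not tested.

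The other IGF2BP genes added little. Igf2bp2, which in adult tissues is the most widely expressed of the family, was at 0.585, 0.657 and 0.805 FPKM in controls, against 0.848, 0.760 and 0.582 in Dot1l-deleted libraries, with overlapping groups. Igf2bp1, the classical oncofetal member, was listed at 0 in all libraries but the first Dot1l-deleted one, at 0.0139 FPKM, or about 3.31 fragments. Igf2bp3 held 94.9% to 96.4% of the summed IGF2BP FPKM, so 1 paralogue made up nearly all IGF2BP RNA in both groups.

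**Figure D1:**
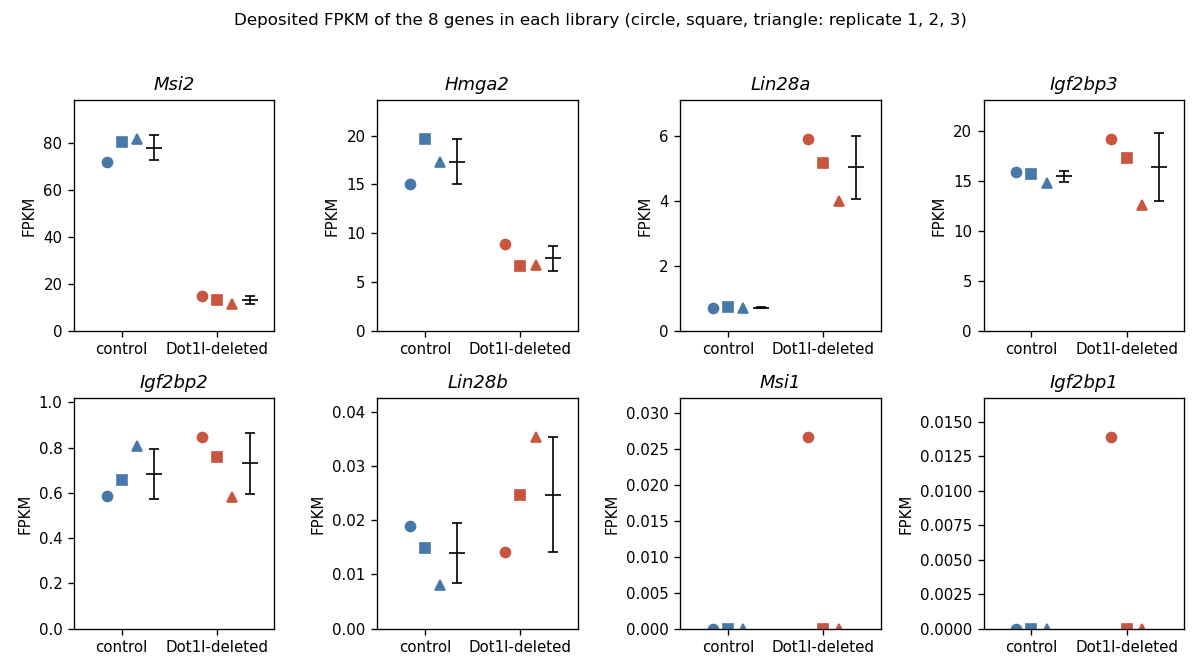
Deposited FPKM of each of the 8 genes, 1 panel per gene with its own axis from 0, and 1 point per library in blue for control and red for Dot1l-deleted; black bars are the mean and SD of 3 libraries, left out where a library is listed at 0. Msi2 and Hmga2 lie lower after deletion and Lin28a higher, while the groups of Igf2bp3, Igf2bp2 and Lin28b overlap and Msi1 and Igf2bp1 are listed at 0 in 5 of 6 libraries.

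One library, the third Dot1l-deleted one, was unlike the rest. The median log2 deviation of its tested genes from the mean over libraries was -0.37, against 0.05 to 0.10 in the others, and the top 10 rows took 39.0% of all FPKM there, 6.59% to 10.8% elsewhere. Over all tested genes the median difference was -0.16 on the log2 scale, and 0.00111 after median-of-ratios scaling, which sets the libraries to a common median gene and is called scaled here. Estimated depths ran from 19350000 to 27590000 fragments. The label check held: Dot1l was at 20.8 ± 1.62 FPKM in controls and 7.40 ± 1.39 in Dot1l-deleted libraries (SD, n = 3 each), with a log2 fold change of -1.39 (limma adjusted p = 0.000124).

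Scaling kept the direction of Msi2, Hmga2 and Lin28a and changed the picture of Igf2bp3. The scaled log2 fold changes were -2.31 (SE 0.0847) for Msi2, -0.96 (SE 0.146) for Hmga2 and 1.93 (SE 0.0774) for Lin28a. In mean scaled FPKM these were 5.24-fold lower, 2.05-fold lower and 8.05-fold higher. Scaled Igf2bp3 values were 14.7, 14.8 and 14.1 for controls, against 18.3, 16.7 and 16.7 for Dot1l-deleted libraries, without overlap. Its scaled log2 fold change was 0.23 (SE 0.0485), 1.19-fold higher in mean scaled FPKM. Without the third Dot1l-deleted library the log2 fold changes of the unscaled values were -2.40 for Msi2, -1.07 for Hmga2 and 0.23 for Igf2bp3.

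**Figure D2:**
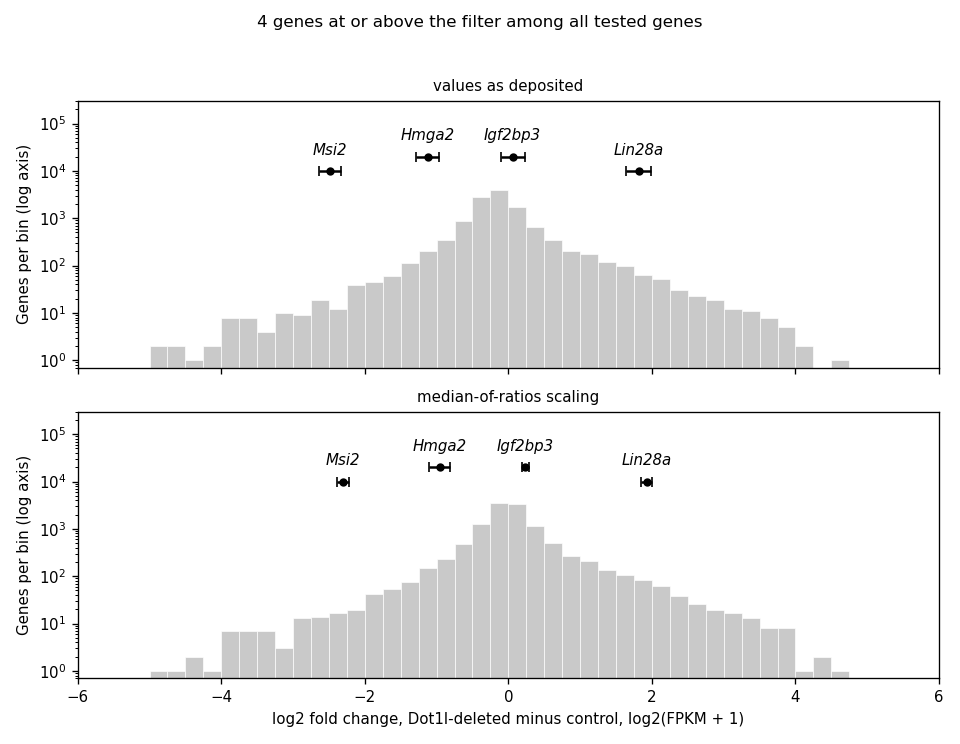
Number of tested genes per bin of log2 fold change (x axis, Dot1l-deleted minus control; y axis, genes per bin on a log axis), for values as deposited above and scaled values below. Black points with SE bars mark the 4 genes at or above the filter: Msi2 at -2.49 lies in the lower tail, Hmga2 at -1.13 beside it, Igf2bp3 at 0.06 near the middle and Lin28a at 1.81 in the upper tail; the height of the points has no meaning.

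Set among other RNA-binding proteins, Msi2 lost rank. With 50 other tested genes of known RNA-binding proteins and the 3 tested ones here, Msi2 took places 23, 20 and 19 of 53 by FPKM in the controls and 35, 36 and 35 after deletion. Igf2bp3 took places 36, 36 and 37 and then 34 in each library. Lin28a was last of 53 in every control and took places 45, 46 and 47 after deletion. Lin28a passed the filter only through the Dot1l-deleted group, so its last place in the controls follows largely from the filter. Of the 50 others, 2 rose and 10 fell, and 38 did not pass. Across all tested genes limma called 19.7% at an adjusted p under 0.05, 7.43% higher and 12.2% lower. Of the 50, 24% were called, 4% higher and 20% lower. The total lay near the background, with more falls and fewer rises. Dazl, a germ cell translation regulator, fell from 4.005 ± 0.472 to 0.293 ± 0.0868 FPKM (SD, n = 3 each, as for all later values with ±; log2 fold change -1.95, limma adjusted p = 2.646e-05). Rbpms, which binds mRNA in smooth muscle and other cells, fell from 20.5 ± 0.132 to 7.01 ± 1.35 FPKM, and the Staufen gene Stau2, whose product binds double-stranded RNA, from 23.9 ± 1.95 to 11.3 ± 1.29. Rbms1, a single-stranded nucleic acid-binding gene, rose from 9.07 ± 0.544 to 22.6 ± 3.98 FPKM (log2 fold change 1.22), and the mRNA decay factor gene Zfp36l1 rose from 1.31 ± 0.0247 to 3.63 ± 0.420 FPKM. With scaling, under which 45.3% of all tested genes were called, 23.0% higher and 22.3% lower, 5 of the 50 rose and 17 fell. As deposited but lacking the third Dot1l-deleted library, where 38.2% of all tested genes were called, 17.1% higher and 21.1% lower, 3 of the 50 rose and 17 fell. Without any 1 of the controls 7 fell.

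Most genes that process let-7 or act with LIN28 did not pass. Of 17 tested, none rose, 3 fell and 14 did not pass, with a median log2 fold change of -0.27 against -0.16 over all tested genes. The share called was 17.65%, near the 19.7% of all tested genes. Tut4, the enzyme that uridylates pre-let-7 bound by LIN28 (deposited as Zcchc11), fell from 17.5 ± 1.01 to 9.66 ± 0.9598 FPKM (log2 fold change -0.80, limma adjusted p = 0.0019). Dis3l2, the exonuclease that degrades the uridylated precursor, fell from 11.0 ± 0.628 to 7.30 ± 1.33 FPKM (log2 fold change -0.54, limma adjusted p = 0.03). Ago1, an Argonaute gene deposited as Eif2c1, fell from 14.3 ± 0.808 to 9.63 ± 1.62 FPKM. Drosha and Dicer1, the nucleases of microRNA processing, had log2 fold changes of -0.38 and -0.27 with limma adjusted p-values of 0.158 and 0.256. The number that fell was 1 without any 1 of the controls, 2 without the second Dot1l-deleted library, 4 without the first and 6 without the third. With scaling 5 fell and 1 rose, Drosha among those that fell, at a log2 fold change of -0.21. The scaled share called was 35.3%, below the 45.3% of all tested genes.

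Genes known as let-7 targets moved in both directions. Of 28 tested besides the 8 genes, 3 rose, 7 fell and 18 did not pass, and the median log2 fold change was -0.11. The rises were 10.7% and the falls 25% of the list, against 7.43% and 12.2% of all tested genes. Mycn, a MYC family transcription factor, fell: controls were at 14.8, 15.9 and 14.01 FPKM, Dot1l-deleted libraries at 2.36, 2.16 and 1.59 (log2 fold change -2.40, limma adjusted p = 2.01e-06). Irs2, an adaptor of insulin and IGF receptors, fell from 6.73 ± 1.22 to 1.33 ± 0.342 FPKM, and Cdk6, a cell cycle kinase gene, from 54.7 ± 3.72 to 20.1 ± 4.496. Arid3a, a transcription factor gene of B-cell and fetal blood programmes, rose from 7.28 ± 0.178 to 17.6 ± 3.04 FPKM (log2 fold change 1.16, limma adjusted p = 0.000348). The other 2 that rose were Igf1r and the death receptor gene Fas, and those that fell also included Arid3b, E2f5 and Tgfbr1. Without any 1 of the controls 5 fell. With scaling 9 rose and 8 fell, and lacking the third Dot1l-deleted library 7 rose and 8 fell. The scaled calls were 60.7% of the list, against 45.3% of all tested genes, and 38.2% of all were called without that library. Hmga1, the close relative of Hmga2, was at 48.0 ± 3.21 FPKM in the controls and 61.5 ± 13.5 after deletion, with overlapping groups (log2 fold change 0.33, limma adjusted p = 0.255); its scaled log2 fold change was 0.51 (adjusted p = 0.00189). The paralogues Hmga1 and Hmga2 therefore did not share a direction once the libraries were scaled.

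Of 16 tested targets and partners of Musashi, 1 rose, 2 fell and 13 did not pass. The share called was 18.75%, near the 19.7% of all tested genes. With scaling 2 rose and 2 fell, 25% of the list against 45.3% of all tested genes. Numb, the Notch inhibitor whose mRNA Musashi is known to repress, was at 8.58, 8.48 and 8.10 FPKM in controls, against 12.7, 13.01 and 10.4 in Dot1l-deleted libraries. The groups did not overlap, and Numb rose with a log2 fold change of 0.47 (SE 0.136, limma adjusted p = 0.0348) and a scaled one of 0.64. The call was lost without any 1 of the 3 controls, without the first or second Dot1l-deleted library, with no filter, with no variance trend and with scaling to the total. Hoxa9, a homeobox gene whose mRNA MSI2 is known to bind in leukaemia cells, fell from 38.4 ± 2.24 to 1.5 ± 0.427 FPKM (log2 fold change -3.99). Tgfbr1 fell from 26.3 ± 2.04 to 15.7 ± 2.60 FPKM (log2 fold change -0.72, limma adjusted p = 0.00916). Myc and Ikzf2, whose mRNAs are also known MSI2 targets, had log2 fold changes of -0.29 and 0.06 with limma adjusted p-values of 0.291 and 0.783. RNA levels do not show translation, the step at which Musashi often acts.

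Of 17 tested targets of the IGF2BP proteins and partners in their mRNA complexes, none rose and 2 fell, Cdk6 and the ETS repressor gene Etv6 (log2 fold change -0.69, limma adjusted p = 0.0122). The share called was 11.8%, below the 19.7% of all tested genes. With scaling 4 rose and 4 fell, 47.1% of the list, near the 45.3% of all tested genes. Without the third Dot1l-deleted library 1 rose and 4 fell, where 38.2% of all tested genes were called. Without any 1 of the controls only 1 of the 17 fell. Syncrip, a partner in IGF2BP complexes, had a log2 fold change of -0.27 (limma adjusted p = 0.318), and Cd44, a surface receptor target, 0.52 (limma adjusted p = 0.0567). Of 18 tested writers, erasers and readers of m6A, the RNA mark that IGF2BP proteins can read, limma called 0, against 19.7% of all tested genes. An unadjusted limma p under 0.05 was found for 2. With scaling 2 rose and 3 fell, 27.8% of the list against 45.3% of all tested genes. Leaving out the third Dot1l-deleted library gave 1 that rose and 1 that fell, and leaving out the first 1 that fell.

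Insulin-like growth factors, for which the IGF2BP family is named, were listed with their receptors, binding proteins, adaptors and related genes. Of 17 genes listed, 9 lay below the filter. Of the 8 tested, 6 were called, against 19.7% of all tested genes. Among these 8, 5 fell, 1 rose and 2 did not pass, with a median log2 fold change of -1.28. With scaling 3 rose and 5 fell, so all 8 were called, against 45.3% of all tested genes. Lacking the third Dot1l-deleted library 2 rose and 5 fell, where 38.2% of all tested genes were called. Igf1, the growth factor gene, went from 9.11, 12.1 and 14.1 FPKM to 0.811, 0.772 and 0.823 (log2 fold change -2.80, limma adjusted p = 2.01e-06). Igfbp7, an IGF-binding protein gene, fell from 50.4 ± 1.24 to 5.22 ± 0.802 FPKM, Igf2r, the receptor that clears IGF2, from 11.9 ± 0.846 to 3.17 ± 0.645, and Grb10, an adaptor that restrains the receptors, from 13.3 ± 1.17 to 6.57 ± 0.562. The signalling receptor gene Igf1r rose from 7.41 ± 0.377 to 16.03 ± 2.99 FPKM (log2 fold change 1.003, limma adjusted p = 0.00115). The fifth gene that fell was Irs2, and both receptor-side genes Irs2 and Igf1r are also in the let-7 target list. Igf2 itself lay between 0.0139 and 0.182 FPKM in all 6 libraries, below the filter, so the eponymous target was nearly absent.

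Among fetal and imprinted growth genes, 3 of 10 tested rose and 2 fell. These were 30% and 20% of the list, against 7.43% and 12.2% of all tested genes. With scaling 60% of the 10 were called, against 45.3% of all tested genes. Hbb-y, the embryonic beta-like globin gene, went from 0.701, 0.914 and 0.891 to 4.34, 6.75 and 5.53 FPKM (log2 fold change 1.82, limma adjusted p = 5.024e-05), though globin rows can share reads with near-identical copies. Gpc3, an oncofetal proteoglycan gene, and Arid3a were the others that rose, and Grb10 and Igf2r those that fell. H19, the fetal partner transcript of Igf2, was at 1.09 ± 0.310 FPKM in the controls and 1.12 ± 0.393 after deletion, 0.02 apart on the log2 scale (limma adjusted p = 0.968). Lin28a and Hbb-y were thus higher while Hmga2 was lower, and the fetal genes tested did not move one way. Another 13 genes of this list lay below the filter and are not in the counts. Among these low rows Meg3, Cdkn1c, Ndn, Sgce, Ppp1r9a and Hbb-bh1 were higher without overlap and Mest was lower. Some lay near 0, with means of 0.0962 and then 0.766 FPKM for Sgce and 0.194 and then 0.0469 for Mest. Among tested genes 44.9% did not overlap, and no such share was taken over rows below the filter. These low rows are therefore a description only.

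Of 13 other tested genes of the high-mobility-group families, none rose and 5 fell, among them Hmgb1, Hmgb3, Hmgn3 and Hmgn5 (deposited as Nsbp1). The falls were 38.5% of the list, against 12.2% of all tested genes called lower and 19.7% called either way. Hmgb3, a chromatin gene of blood progenitors, fell from 28.7 ± 0.666 to 13.6 ± 2.02 FPKM (log2 fold change -1.04), and Hmgn3, a nucleosome-binding gene, from 158 ± 9.25 to 79.9 ± 14.01 (log2 fold change -0.99). The number that fell was 2 without any 1 of the controls and 3 without the second Dot1l-deleted library. With scaling, and likewise without the third Dot1l-deleted library, 7 fell and 2 rose. Of all tested genes 45.3% were called with scaling and 38.2% without that library, and of this list 69.2% with scaling. These families have many processed copies in the genome, so their reads can be shared and the values are uncertain.

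**Figure D3:**
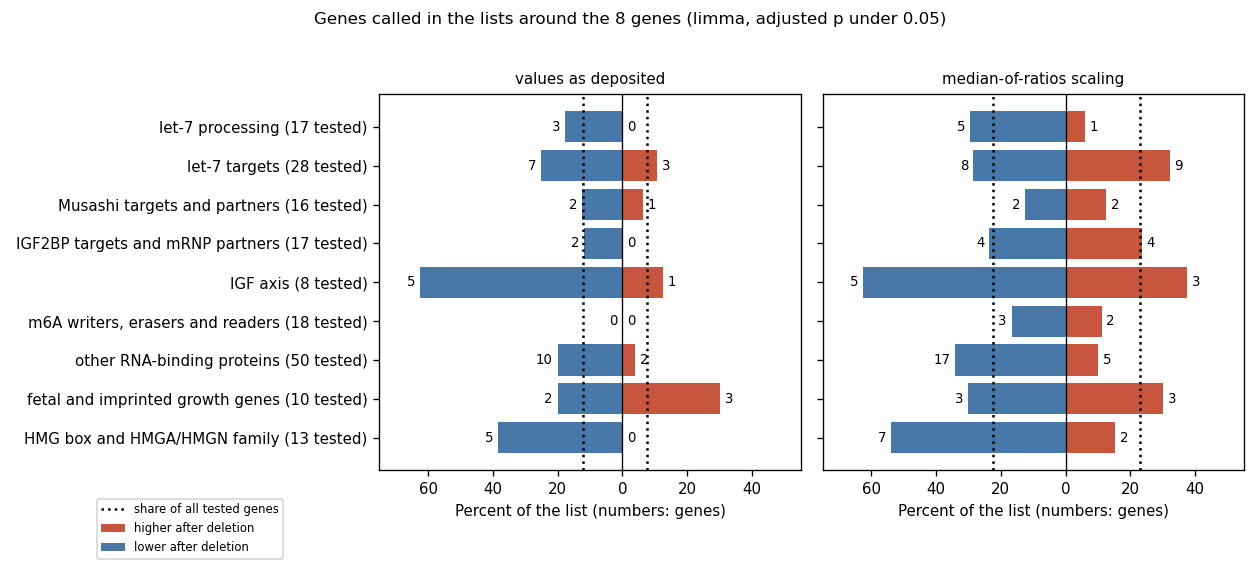
Percent of the tested genes of each of 9 lists called higher (red, to the right) or lower (blue, to the left) after deletion, for values as deposited on the left and scaled values on the right, with the number of genes beside each bar; dotted lines are the shares of all tested genes, 7.43% higher and 12.2% lower as deposited and 23.0% and 22.3% when scaled. The list of IGF genes with their receptors, binding proteins and adaptors has the largest share of falls on both sides, 5 of 8. The m6A list has no call as deposited.

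**Figure D4:**
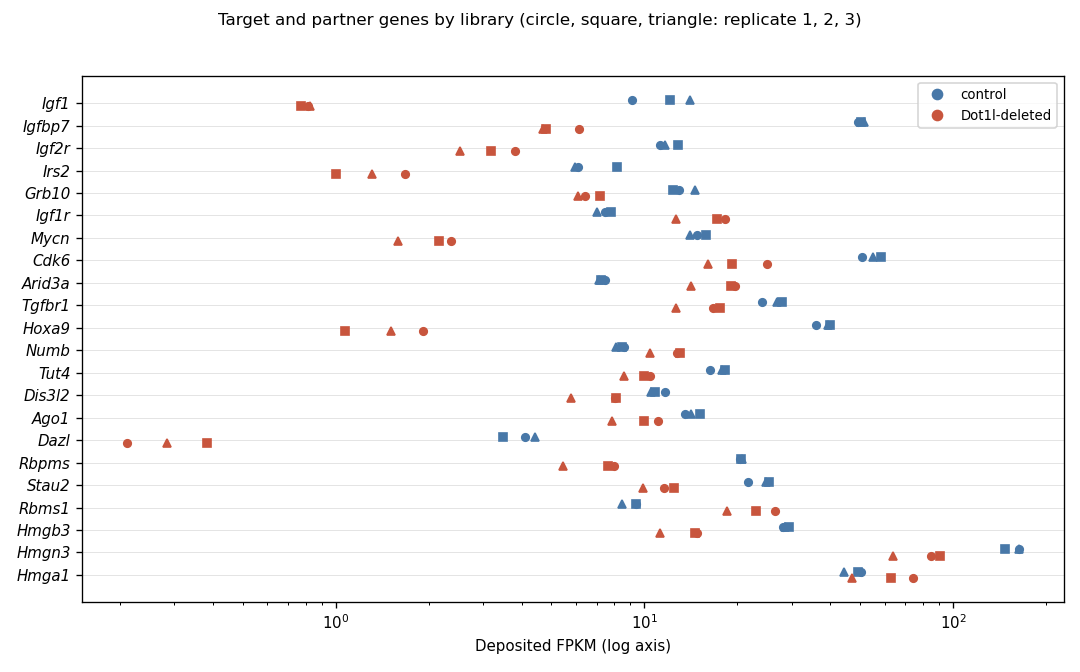
Deposited FPKM on a log axis of 22 target and partner genes, 1 point per library, blue for control and red for Dot1l-deleted. Igf1, Igfbp7, Mycn, Hoxa9 and Dazl lie far lower after deletion, Igf1r, Arid3a, Numb and Rbms1 higher, and the groups of Hmga1 overlap.

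Genes beside the 8 were called about as often as genes at large in values as deposited. Of 31 matched neighbours, taken as the 2 nearest protein-coding genes on each side in the RefSeq order, 23 were tested; 3 rose, 1 fell and 19 did not pass, near the background of 19.7%. Beside Msi2, Akap1 and Mrps23 had log2 fold changes of -0.36 and -0.34 and Scpep1 0.52, none of which passed as deposited (limma adjusted p = 0.154, 0.237 and 0.0878). Around Hmga2 none of Llph, Tmbim4, Msrb3 and Lemd3 passed as deposited, Msrb3 coming nearest at -0.57 (limma adjusted p = 0.0516). Near Lin28a, Dhdds and Hmgn2 did not pass as deposited, while Cd52, a surface glycoprotein gene of leukocytes that is the second gene on the other side, rose from 15.4 ± 2.90 to 47.1 ± 4.59 FPKM (log2 fold change 1.57, limma adjusted p = 8.4e-05). The other calls were Etv5 near Igf2bp2 and B4galnt2 near Igf2bp1, which rose, and Hace1 near Lin28b, which fell. With scaling 8 of the 23 rose and 4 fell, 12 in all, against 45.3% of all tested genes. Among the neighbours named, Mrps23 and Akap1 then fell (scaled limma adjusted p = 0.0247 and 0.0487), by 0.16 and 0.18 on the log2 scale against 2.31 for Msi2. Scpep1, Dhdds and Hmgn2 then rose (0.005, 0.00149 and 0.00031), Msrb3 fell (0.0202), and B4galnt2 lost its call (0.0662).

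The promoters of the 3 genes whose libraries did not overlap are shown to compare their base composition and motifs. They are the 250 bases before the annotated start, 5′ to 3′ on the minus strand, from RefSeq (GRCm38.p6, a later build than the mm9 of the files, and matched by symbol). Msi2 is chr11:88718278-88718527, the window of the most upstream of its 3 annotated starts, Hmga2 chr10:120476470-120476719 and Lin28a chr4:134018817-134019066. Capitals mark the E-box CACGTG, bound by MYC and USF factors; other searched motifs are given in the next paragraph.
Msi2: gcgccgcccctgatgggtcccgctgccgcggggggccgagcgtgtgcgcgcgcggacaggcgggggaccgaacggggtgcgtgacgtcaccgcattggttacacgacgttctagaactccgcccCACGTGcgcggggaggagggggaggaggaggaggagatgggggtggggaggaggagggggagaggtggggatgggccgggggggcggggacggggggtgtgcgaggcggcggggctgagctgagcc
Hmga2: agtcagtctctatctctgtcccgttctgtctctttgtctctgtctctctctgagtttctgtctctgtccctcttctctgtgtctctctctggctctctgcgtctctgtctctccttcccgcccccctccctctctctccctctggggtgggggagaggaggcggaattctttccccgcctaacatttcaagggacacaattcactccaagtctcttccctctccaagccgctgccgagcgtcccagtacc
Lin28a: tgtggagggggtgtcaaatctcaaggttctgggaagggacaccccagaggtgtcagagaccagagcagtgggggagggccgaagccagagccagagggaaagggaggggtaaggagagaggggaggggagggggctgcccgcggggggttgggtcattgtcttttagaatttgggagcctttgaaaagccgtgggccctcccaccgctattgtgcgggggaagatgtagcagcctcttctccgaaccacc

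The Msi2 window had 75.6% G and C and 29 CpG dinucleotides, against a median of 52.4% and 6 over 32841 windows, and held 1 E-box. The Lin28a window had 61.2% G and C with 7 CpG, and the Hmga2 window 56.4% with 8 CpG. Searched on both strands were also TGATNNAT, bound by HOX with PBX, and TGACAG, bound by MEIS; overlapping matches were counted. Neither was found in these 3 windows. The GC box GGGCGG, bound by SP1, stood 3 times in the Msi2 window, once in the Hmga2 window and not in the Lin28a window, and the TATA box letters TATAAA in none of the 3; these are not in capitals. Of all windows 6.02% held CACGTG, 7.69% TGATNNAT, 15.9% TGACAG, 32.8% GGGCGG and 12.4% TATAAA. Of the other genes with a window, Igf2bp3 held 1 E-box, Lin28b 2 overlapping TGATNNAT matches, 1 TGACAG and 1 E-box, and Igf2bp2 none of these 3. The overlapping window of another Msi2 start, chr11:88718230-88718479, which is not printed, held 2 E-boxes. Msi1 and Igf2bp1 had no entry.

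The tested genes whose pattern over the 6 libraries was most like each member were taken by Pearson r on log2(FPKM + 1). The libraries form 2 groups, which for Msi2, Hmga2 and Lin28a do not overlap, so r there mostly follows the difference between groups. It is a description only. For Msi2 the first 5 were Zdhhc23, the HOX cofactor gene Meis1, Serinc5, the nuclear factor gene Tox and Gpr12, with r of 0.9995 to 0.9992; Meis1 went from 55.1 to 8.11 FPKM in the mean. For Hmga2 they were the homeobox gene Hoxa6, the scavenger receptor gene Cd163, the kinase gene Hipk2, Rere and Bicd1 (0.9975 to 0.9966), and Hoxa6 went from 3.19 to 0.143 FPKM. For Lin28a they were Lhfpl2, the glutathione transferase gene Gstm1, Sez6l, the guanine deaminase gene Gda and Ccno (0.9992 to 0.999), and Gda went from 11.8 to 41.6 FPKM. For Igf2bp3 they included Cdc42bpg, the phosphatase gene Ppp5c, the kinetochore gene Spc24 and Tm9sf4 (0.9981 to 0.9958), none of these far apart between the groups: Ppp5c was at 70.5 and 74.1 FPKM. Igf2bp3 was lowest in the third Dot1l-deleted library, and with scaling the r of Cdc42bpg was 0.869.

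Markers of maturing myeloid cells moved in the same contrast as Msi2, Hmga2 and Lin28a. Of 15 late neutrophil markers 14 were higher without overlap in the Dot1l-deleted libraries, and their summed FPKM went from between 1029 and 1251 to between 20810 and 24670. Most of that sum was S100a8 and S100a9, at means of 13070 and 8392 FPKM after deletion. Ltf, Retnlg and Mmp9 stayed low, at 8.11, 3.24 and 0.0162. Of all tested genes 44.9% did not overlap, in either direction. Of 12 monocyte markers 8 were higher and 1 lower without overlap, with sums of 170.1 to 193.5 and then 892.3 to 1185. The 12 myeloid progenitor markers held 7 higher and 4 lower, the stem cell factor receptor gene Kit among the latter at 118 and then 57.6 FPKM in the mean, and Cd34 at 749.5 and 122.9. Their sums were 2439 to 2631 in the controls and 4443 to 6580 after deletion. All 12 exceeded 0.1 FPKM in at least 1 library, but so did all 12 monocyte and all 10 erythroid markers. Detection therefore cannot check the label of myeloid progenitors. The 10 erythroid markers summed to 67.3 to 72.1 and then 47.1 to 60.6 FPKM. The part of these shifts in the values of the 8 genes was not tested.

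Markers of other cell types were mixed or low. Their counts without overlap stand against 44.9% of all tested genes, in either direction, and many of these rows lay below the filter. Of 9 pluripotent and germ cell markers, Pou5f1, Nanog, Sox2, Zfp42, Dppa4 and Dppa5a were listed at 0 in all 6 libraries. The list summed to 3.67 to 4.72 FPKM in the controls and 0.346 to 0.796 after deletion, most of it Dazl, at 3.49 to 4.41 FPKM in the controls. Of 8 neural markers, Sox2, Olig2 and Dcx were listed at 0 in all libraries, 3 were higher without overlap, and the sum was 3.53 to 4.43 and then 7.60 to 14.3. The tubulin gene Tubb3 made up most of that rise, from 2.74, 2.201 and 2.01 to 11.1, 10.04 and 6.495 FPKM (log2 fold change 1.599, limma adjusted p = 0.0002), and Sox1 lay between 0.879 and 2.96 FPKM with overlapping groups. Nes and Pax6, also higher without overlap, lay near 0. Their means were 0.0230 and 0.0350 FPKM in the controls and 0.0723 and 0.0932 after deletion.

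Of 6 B cell markers 1 was higher and 1 lower without overlap, where 44.9% of all tested genes did not overlap. The sum of the 6 was 1.55 to 2.06 and then 4.60 to 6.53 FPKM. Cd79b, a chain of the B cell receptor, rose 3.68-fold. Of 7 T and NK cell markers Cd3g, Cd8a and Ncr1 were listed at 0 in all libraries, and the sum, 4.19 to 5.28 and then 3.49 to 5.08 FPKM, was mostly that of the kinase gene Lck, at 3.33 to 5.16. Of 8 stromal markers Dcn, Lum and Postn were listed at 0 in all libraries, 1 was higher and 2 lower without overlap, and the sum was 2.92 to 3.92 and then 1.85 to 2.46 FPKM. Pdgfrb lay between 1.39 and 2.48 FPKM, and Col1a2 went from 0.914, 1.248 and 1.02 to 0.291, 0.300 and 0.299. The stromal marker that was higher, Col1a1, lay near 0, at means of 0.0273 FPKM in the controls and 0.1415 after deletion. The part of these genes' cell types in the values of the 8 genes was not tested.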

How the data were processed

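The authors deposited 1 table of FPKM per library. Its tools were CASAVA 1.8.2, GSNAP, SAMtools and Cuffdiff on build mm9, per the submitters' processing notes, with no role or order given. Polyadenylated RNA went into stranded libraries, per the labels' protocols; the counting of strands is not stated in those sources. A value of 999999999, read as a failed estimate, stood in 378 genes in at least 1 library, and these were left out; none was among the 8 genes. Genes averaging 1 FPKM or more over the 6 libraries, 11924 in all, were fitted with limma 3.58.1 in R 4.3.3 (lmFit, eBayes with a variance trend) on log2(FPKM + 1), two-sided, with Benjamini-Hochberg adjusted p under 0.05 over all of them. "Rose" and "fell" refer to this call. The fit was tested on simulated data.

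Depth in fragments was estimated from the smallest step between values of 18 to 25 single-exon genes per library, with GENCODE M21 lengths, and is approximate. Nothing in the labels says whether replicates are separate cultures or animals. The p-values therefore rest on the spread between samples that may be technical repeats.

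The members and lists were chosen with earlier results of these data known, and the gene lists are from general knowledge. Named were all members, up to 4 genes with the smallest adjusted p per list, 13 genes whatever their level, Dot1l, 5 most alike genes per tested member and 2 neighbours on each side. Other genes named (such as Fas, Zfp36l1 and Gpc3) were picked once their values had been seen. Some further list genes were not analysed by name here. Alternatives covered the pseudocount, filter, scaling, variance model, sample weights, a replicate block and each library left out; 2 added after seeing the data were scaling without the third Dot1l-deleted library and scaling with the block.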

Additional observations from a re-analysis of the deposited data

How the results depend on the processing

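Scaling and the third Dot1l-deleted library moved the number of calls. Against 2345 genes called, 5401 were called with median-of-ratios scaling, 4559 with that scaling and the third Dot1l-deleted library left out, 4461 with the scaling and the replicate block, 5608 with quantile normalization and 5716 with sample weights; leaving out 1 library at a time gave 1819 to 4558, the highest without the third Dot1l-deleted one. In the same order the calls in the context lists went from 39 to 75, 65, 64, 85 and 79, and to 27 to 65 with 1 library left out. The share of called genes that were higher was 37.8%, and 50.7% with median-of-ratios scaling, 49.4% with no filter and 27.9% with scaling to the total.

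Msi2, Hmga2 and Lin28a kept their direction under each alternative that gave them a value. The log2 fold change of Msi2 was -2.31 with median-of-ratios scaling (also with the replicate block), -2.20 with a pseudocount of 5, -2.34 with quantile normalization, -2.63 with scaling to the total, and -2.57 to -2.40 with 1 library left out. The log2 fold change of Lin28a was 2.66 with a pseudocount of 0.1 and 0.81 with 5, and a filter at 5 FPKM left it out. The log2 fold change of Hmga2 was -0.85 with a pseudocount of 5. Values near 0 changed sign. The log2 fold change of Igf2bp3 was -0.0837 with scaling to the total, and -0.0593 to 0.226 with 1 library left out, lowest without the first Dot1l-deleted one. The log2 fold change of Ikzf2 was -0.0668 with scaling to the total. The log2 fold change of H19 was -0.0210 with quantile normalization, -0.0605 with scaling to the total, and -0.126 to 0.131 with 1 library left out, lowest without the first Dot1l-deleted one and -0.105 without the first control. The cause was not tested.

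The labels do not say whether same-numbered libraries are paired. Deviations of same-numbered libraries from their group means correlated at r = -0.0301, -0.0377 and 0.0128 in unscaled values. With 3 libraries per group and the third Dot1l-deleted one unlike the rest, these values cannot decide it. The replicate block called 2953 genes and 41 in the context lists. Low rows limit what can be said of Msi1, Igf2bp1 and Lin28b, which rest on fewer than 10 estimated fragments per library.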

Other observations

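Gene groups split by the let-7 seed match, a split chosen after seeing the data, are given as values. Of 1083 tested genes with at least 1 CTACCTC in the longest 3′UTR, 8.13% rose and 13.3% fell, and of 9344 without one 7.87% rose and 13.0% fell. Of the 140 with 2 or more, the shares were 12.9% and 7.86%. After scaling, 30.7% of these 140 rose and 15% fell, against 24.8% and 24.6% of the genes without a match. Their 3′UTRs were longer, at a median of 3641 bases against 1028, and the part of length was not tested. Lin28a, with 2 matches, was higher in the Dot1l-deleted libraries, and Hmga2, with 4, was lower.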
